A study of Homo sapiens with 20 samples.

Results

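The genes described here are 10 genes of mitophagy and autophagy: BNIP3L, BNIP3, FUNDC1, ULK1, ATG7, ATG4A, MAP1LC3B, GABARAPL1, GABARAPL2 and SQSTM1. They are 10 of the 46425 genes of the series and were found by symbol, with the 59 of 170322 transcripts that carry these symbols summed by gene in each library. HUDEP-2 is an immortalized human erythroid progenitor line derived from umbilical cord blood, and it is a single line, so the libraries hold no variation between donors. All 20 libraries came from wild-type (WT) cells, 2 on each of 10 days. Day 0 (D0) cells were in StemSpan SFEM with erythropoietin (EPO), stem cell factor (SCF), doxycycline, which keeps the immortalizing transgene of the line on, and, per the methods of the study, dexamethasone. The cells of D1 to D8 and D12 were in IMDM-based differentiation medium with transferrin, serum, heparin, insulin, EPO, SCF and doxycycline, from which SCF was left out on day 6 and doxycycline on day 8. The study places D0 at the proerythroblast stage (Pro-E), D4 to D6 at the early and late basophilic stages (EB/LB), D8 at the polychromatic stage (Poly) and D12 at the orthochromatic and reticulocyte stages (Ortho).

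Maturing red cells destroy their own mitochondria, and most of this goes through autophagy, in which a membrane closes around cargo and fuses with the lysosome. The ULK1 kinase starts the process, the E1-like enzyme ATG7 activates proteins of the ATG8 family (LC3 and GABARAP proteins) for attachment to the growing membrane, and ATG4 proteases cut these proteins before and after use. Receptors then bind ATG8 proteins and cargo at once: BNIP3L (also called NIX), BNIP3 and FUNDC1 sit in the outer mitochondrial membrane, and SQSTM1 (p62) carries ubiquitinated cargo. BNIP3L is known as the main mitophagy receptor of reticulocytes.

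The libraries held 52131713 to 70358198 counts (median 61806912), and the members held 83 to 65642 counts in a library, so none was near the limit of a count of 0. The libraries of a day are named by the table they came from. Set A joins the tables of D0 to D6, of D7 and D8, and of D12, and set B is the table of all days. In set A, D8 thus comes from another table than D0 to D6, and D12 from another than D8. Table and day cannot be told apart there. Between 65.3% and 78.0% of genes differed between the libraries of a day by more than sampling noise. The study calls the D0 and D8 libraries biological replicates. The labels do not say that the libraries of a day are separate cultures. The p-values thus measure only the spread between libraries, which may still be technical in part, and this was not tested. Ribosomal RNA genes took 18.5% and 17.5% of counts in the set A libraries of D7 and D8 and 1.03% to 4.08% in the others. Globin genes took 28.2% and 33.7% of counts on D12 against 9.85% and 8.49% on D8. The 8 erythroid markers summed to 21626 and 26070 TPM on D0 and to 289515 and 335735 TPM on D12 in sets A and B. Most of this was HBB, at 18579 to 332052 TPM over the libraries. The next highest, TFRC, reached 3178 TPM. In tests described below, 4 were higher and 2 lower on D12 than D8 after TMM (23.8% and 33.4% of all genes). On log2(TPM + 0.1) it was 1 and 5 (8.11% and 58.0%). The 14 markers of other blood lineages summed to 124 and 51.0 TPM on D0 and to 5.76 and 3.80 TPM on D12. In every library PF4, PPBP and CD3E were at 0. In these bulk libraries, fewer cells of a type and less RNA per cell cannot be told apart.

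The question was whether these genes moved together as the cells matured. On D12, 7 of the 10 genes stood above D8, 2 below, and FUNDC1 did not pass the test. Counts were scaled with TMM, which sets library sizes so that most genes do not change, and differences between days were tested by quasi-likelihood in edgeR. A gene was called at a Benjamini-Hochberg adjusted p under 0.05 over the 16784 genes tested, all 10 members among them. From D0 to D1, 0 of 10 members were called higher or lower, while 0.262% of all genes tested were called higher and 0.131% lower. At an unadjusted p under 0.05 the D1 comparison held 2 members, SQSTM1 and FUNDC1, both higher. DESeq2 called 1 member higher, SQSTM1, and 262 of all 16784 genes. From D0 to D4-6, 1 member was higher (7.38% of all genes) and 0 lower (9.22%). From D0 to D8, 6 were higher (17.7% of all genes) and 0 lower (19.4%). From D4-6 to D8, the same 6 were higher (11.9% of all genes) and 0 lower (10.8%). From D8 to D12, 7 were higher (23.8% of all genes) and 2 lower (33.4%). Over all days, 9 of 10 members differed between some days, as did 66.0% of all genes; the exception was FUNDC1 (adjusted p = 0.0612). In the comparisons of D4-6 and D8 with earlier days, 0 members were lower at an unadjusted p under 0.05 by edgeR; limma on log2(TPM + 0.1) called 1 lower on D8 against D0 (39.1% of all genes) and 2 against D4-6 (31.2%). The D8 to D12 median log2 fold change was 2.23 over the members and -0.20 over all genes. The comparisons of D8 with D0, with D4-6 and with D12 share the D8 libraries.

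**Figure D1:**
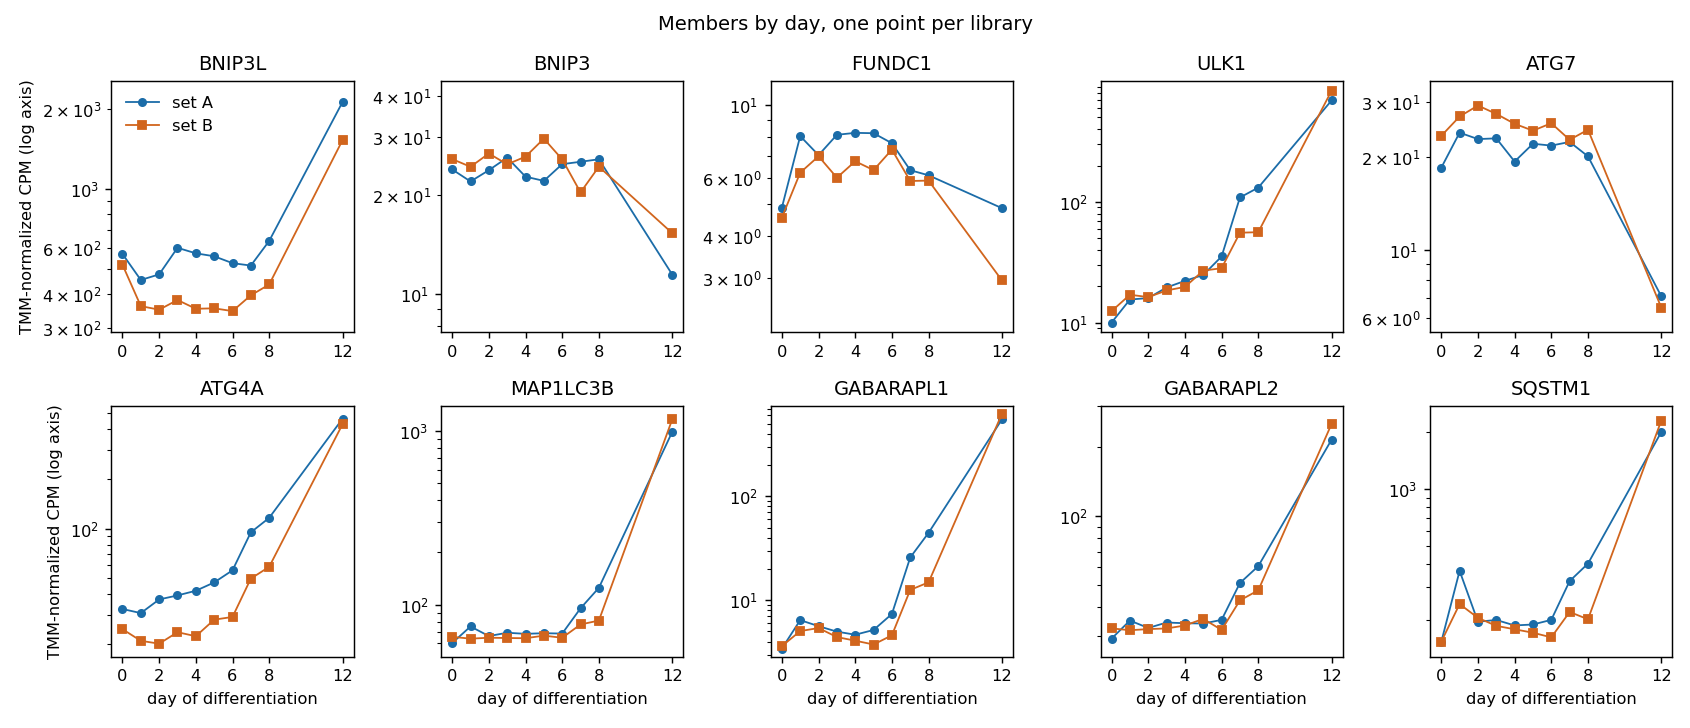
Level of each member by day of differentiation, in TMM-normalized CPM (counts scaled to a fixed library size, log axis), with 1 point per library and a line for each set. Between D8 and D12 the lines of BNIP3L, ULK1, ATG4A, MAP1LC3B, GABARAPL1, GABARAPL2 and SQSTM1 climb in sets A and B, and those of BNIP3 and ATG7 drop.

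**Figure D2:**
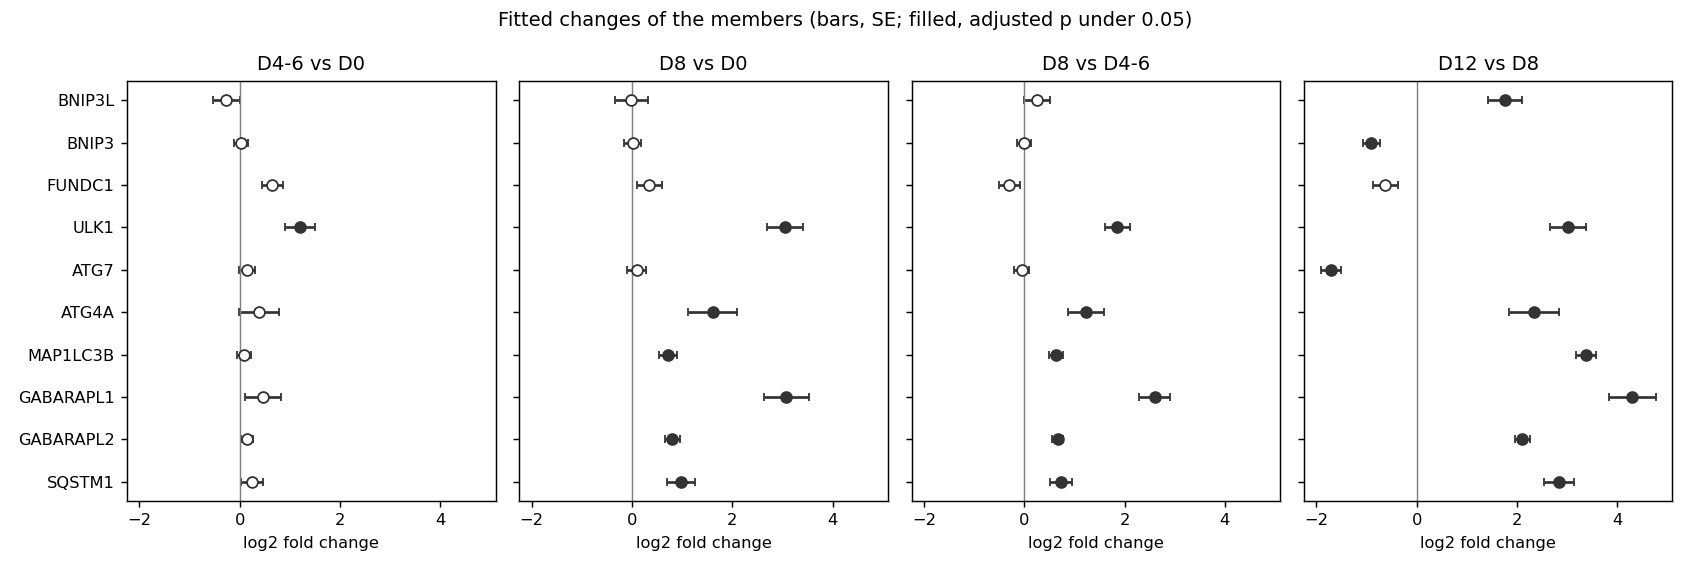
Fitted log2 fold change of each member in 4 comparisons of days (points) with its standard error (bars), from the fit of all 20 libraries. Filled points have an adjusted p under 0.05: 1 in the D4-6 comparison with D0, 6 in each D8 comparison and 9 on D12.

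Of the 3 receptors among the members, BNIP3L was the most abundant. After TMM it differed by log2 -0.018 ± 0.33 SE between D0 and D8 (adjusted p = 0.984), with 568 and 517 CPM on D0 and 636 and 436 CPM on D8, and it rose on D12. With a term for the table set it was called lower on D4-6 than on D0 (log2 -0.31, adjusted p = 0.0412), which it was not without the term. BNIP3L (gene 665, chr8:26383054-26413127, hg38) was at 404, 299, 325, 391, 377, 364, 316, 247 and 276 TPM on D0 to D8 and 427 TPM on D12 in set A. In set B it was at 388, 260, 251, 269, 232, 237, 236, 207 and 230 TPM on D0 to D8 and 232 TPM on D12. In TPM the D12 library was above D8 in set A, nearly equal to it in set B, and that of set B lay below the D8 library of set A. After TMM the same libraries did not overlap: 636 and 436 CPM on D8 against 2118 and 1523 CPM on D12, a 3.40-fold increase (log2 1.76 ± 0.34 SE, adjusted p = 0.000523). With library totals in place of TMM the log2 change was 0.98 (adjusted p = 0.0189), and on log2(TPM + 0.1) with limma it was 0.32 (adjusted p = 0.393). The call of BNIP3L on D12 was thus lost on the TPM scale, on which the median of all genes stood at -1.20.

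Within BNIP3L, variant 2 held the larger share on D0 and variant 1 from D7 on. Of the 2 RefSeq transcripts, variant 1 (NM_004331, 3452 bases) starts at position 26383054 and variant 2 (NM_001330491, 3380 bases) starts 7359 bases downstream, at 26390413, and they share their end. In set A variant 1 carried 21.6% of BNIP3L TPM on D0, 36.8%, 30.3%, 31.1%, 34.7%, 40.2% and 40.6% on D1 to D6, 65.0% on D7, 71.0% on D8 and 70.9% on D12. In set B it carried 27.0% on D0, 35.1%, 40.8%, 46.9%, 44.8%, 50.5% and 47.3% on D1 to D6, 62.6% on D7, 61.8% on D8 and 76.7% on D12. Every library of D7, D8 and D12 lay above every library of D0 to D6. Variant 2 was at 317 and 283 TPM on D0 and at 80.0 and 87.8 TPM on D8, and variant 1 at 87.4 and 105 TPM and at 196 and 142 TPM. These shares compare transcripts within 1 library, so the scaling between libraries does not touch them. They rest on the deposited estimates for overlapping transcripts, and no test was run on them. The summed level of the gene, 253 ± 33.0 TPM on D8 and 396 ± 11.4 TPM on D0 (SD, n = 2), does not show this change.

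**Figure D3:**
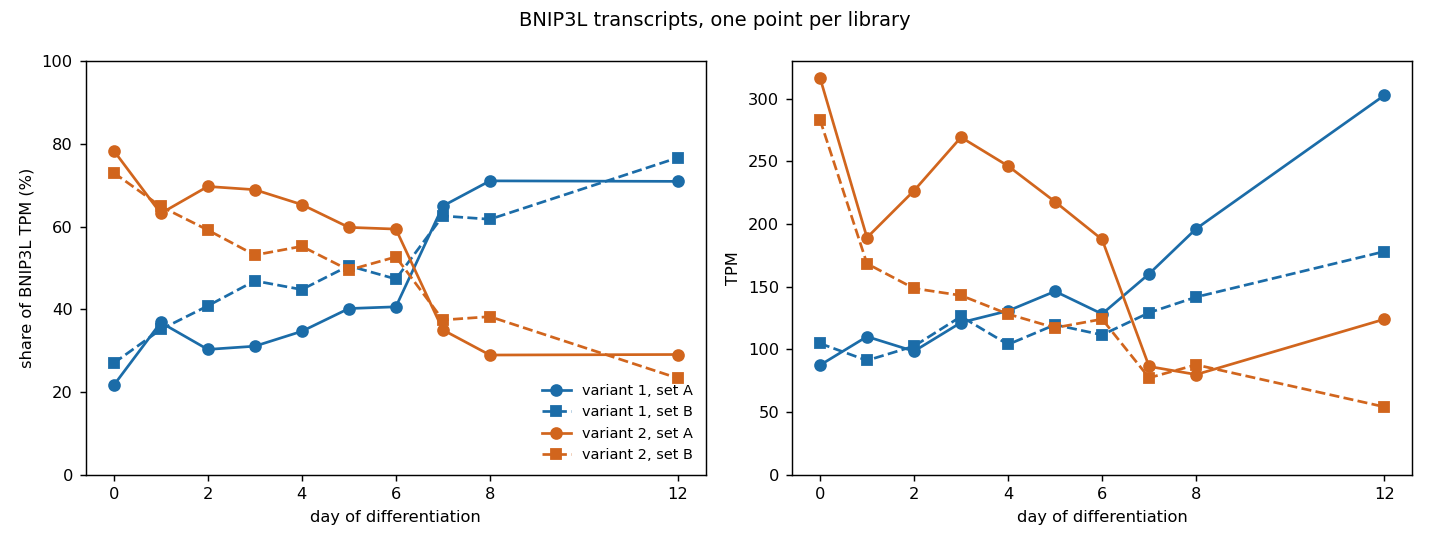
BNIP3L transcripts by day, 1 point per library: the share of BNIP3L TPM (left, %) and the level (right, TPM) of variant 1 (blue) and variant 2 (orange). Variant 1 holds 21.6% and 27.0% on D0 and 70.9% and 76.7% on D12.

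BNIP3, the hypoxia-inducible relative of BNIP3L, ended low. BNIP3 (gene 664, chr10:131967683-131982013) was at 35.4, 30.3, 33.8, 35.2, 31.3, 30.1, 31.2, 25.4 and 23.4 TPM on D0 to D8 and 4.86 TPM on D12 in set A. Set B held 40.1, 36.5, 40.0, 36.6, 35.9, 41.4, 36.5, 22.2 and 26.9 TPM, then 4.91 TPM on D12. The D12 libraries lay far below all others, and on the TMM scale BNIP3 was 1.87-fold lower on D12 than on D8 (log2 -0.90 ± 0.18 SE, adjusted p = 0.000674). The direction held under all 12 alternative settings and all 4 settings that left out a library, with log2 values from -2.34 to -0.71 and from -1.13 to -0.73. From D0 to D8 the sign of the BNIP3 change depended on the scaling: 0.012 after TMM (adjusted p = 0.975), -0.37 with library totals (adjusted p = 0.0994) and -0.58 on log2(TPM + 0.1) (adjusted p = 0.0158). BNIP3L stood 11.4 and 9.67 times over BNIP3 in TPM on D0, 11.8 and 8.53 times on D8, and 87.8 and 47.3 times on D12.

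FUNDC1, the third receptor and also tied to hypoxia, had the fewest counts of the members. FUNDC1 (gene 139341, chrX:44523639-44542859) was at 11.2 and 11.03 TPM on D0, between 13.7 and 17.6 TPM on D1 to D6, at 8.65 and 10.1 TPM on D8 and at 3.18 and 1.45 TPM on D12. Each library of D4 to D6 stood above each D0 library, with a log2 difference of 0.65 ± 0.21 SE that missed the threshold (adjusted p = 0.0537) but passed it under 4 of 12 alternative settings, with DESeq2, with a term for the table set, with at least 10 counts in every library and with only the days compared (adjusted p from 0.00684). D12 differed from D8 by -0.62 ± 0.26 SE (adjusted p = 0.0531). With library totals the D12 difference was -1.43 (adjusted p = 0.000778). Of the summed TPM of the 3 receptors, BNIP3L made up 81.1% to 89.7% on D0 to D8 and 98.1% and 97.3% on D12.

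ULK1, the kinase that starts autophagy, rose in each of the 4 comparisons of D4-6, D8 and D12. ULK1 (gene 8408, chr12:131894622-131923150) was at 4.66, 6.65, 7.17, 8.27, 9.50, 10.6, 13.8, 34.1 and 37.3 TPM on D0 to D8 and 90.8 TPM on D12 in set A. In set B it was at 6.08, 7.85, 7.66, 8.50, 8.47, 11.8, 12.5, 18.9 and 19.5 TPM on D0 to D8 and 83.4 TPM on D12. The sets lay close up to D6 and parted on D7 and D8, where set A was higher. ULK1 was the only member called between D0 and D4-6, at 2.30-fold (log2 1.20 ± 0.29 SE, adjusted p = 0.0135). Without the D0 library of set A this call was lost (adjusted p = 0.168), as it was without that of set B (adjusted p = 0.0619). It rose 8.31-fold from D0 to D8 (log2 3.05 ± 0.36 SE, adjusted p = 3.74e-05) and 8.12-fold from D8 to D12 (log2 3.02 ± 0.36 SE, adjusted p = 7.22e-06). Without the D8 library of set A these log2 values were 2.32 and 3.75, and without that of set B 3.56 and 2.52, all called. On log2(TPM + 0.1) they were 2.32 and 1.69, still called.

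ATG7, which activates ATG8 proteins, went the other way. ATG7 (gene 10533, chr3:11272348-11564652) was at 10.6, 11.4, 11.8, 12.2, 12.2, 10.9, 9.55, 8.23 and 6.61 TPM on D0 to D8 and at 1.17 TPM on D12 in set A. Set B gave 13.2, 17.5, 14.7, 13.9, 16.5, 14.4, 14.4, 12.9 and 9.37 TPM, then 0.672 TPM on D12. The 2 D12 libraries, with 219 and 183 counts, were the lowest of the 20. The D12 level was 3.28-fold below D8 (log2 -1.71 ± 0.20 SE, adjusted p = 6.01e-06), and every alternative kept the call, with values down to -3.01. ULK1 stood at 0.44 and 0.46 of the ATG7 TPM on D0 and at 77.9 and 124 times it on D12. ATG7 reads were divided among 35 transcripts, and none of these is described singly.

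ATG4A, a protease that processes mainly GABARAP proteins, rose on D8 and again on D12. ATG4A (gene 115201, chrX:108091667-108154671) was at 32.2 and 26.7 TPM on D0, 72.4 and 44.2 TPM on D8 and 130.3 and 93.3 TPM on D12 in sets A and B. Set A exceeded set B on every day. It was 3.05-fold higher on D8 than on D0 (log2 1.61 ± 0.49 SE, adjusted p = 0.0201) and 5.08-fold higher on D12 than on D8 (log2 2.34 ± 0.50 SE, adjusted p = 0.00116). Without the D8 library of set A the D12 value was 2.90 and that of D8 was no longer called (1.03, adjusted p = 0.201), and without that of set B they were 1.92 and 2.03, both called. On log2(TPM + 0.1) the D12 difference was 0.96 and not called (adjusted p = 0.0713).

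The ATG8 members rose late. Promoters are shown for the 3 members with the largest increases on D12, GABARAPL1, MAP1LC3B and ULK1, and for BNIP3, which fell and holds an E-box. The 250 bases before the transcription start, from RefSeq on GRCh38.p14, are printed 5′ to 3′ on the strand of the gene, with matches of the searched motifs in capitals. The promoters of 9 of the 10 members were in the table, which held none for BNIP3L. Either strand was searched. The E-box was written CACGTG, and the core of the hypoxia response element, which lies inside it, as ACGTG. The FOXO site was written GTAAACA, the site of GATA-1 as AGATAA and the NRF2 response element as TGACNNNGC. The cAMP response element, TGACGTCA, was added after the sequences had been read.
GABARAPL1, chr12:10212627-10212876, plus strand: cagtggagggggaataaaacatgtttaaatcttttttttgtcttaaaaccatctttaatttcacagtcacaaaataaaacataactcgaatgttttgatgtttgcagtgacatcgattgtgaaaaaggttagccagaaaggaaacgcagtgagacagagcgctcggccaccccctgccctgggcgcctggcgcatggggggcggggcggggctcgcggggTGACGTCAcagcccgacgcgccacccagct
MAP1LC3B, chr16:87392086-87392335, plus strand: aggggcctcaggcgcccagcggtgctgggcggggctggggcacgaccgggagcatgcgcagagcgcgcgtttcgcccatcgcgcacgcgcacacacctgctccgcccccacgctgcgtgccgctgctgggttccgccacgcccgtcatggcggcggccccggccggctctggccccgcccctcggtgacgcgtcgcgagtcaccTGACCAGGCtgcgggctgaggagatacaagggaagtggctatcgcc
ULK1, chr12:131894372-131894621, plus strand: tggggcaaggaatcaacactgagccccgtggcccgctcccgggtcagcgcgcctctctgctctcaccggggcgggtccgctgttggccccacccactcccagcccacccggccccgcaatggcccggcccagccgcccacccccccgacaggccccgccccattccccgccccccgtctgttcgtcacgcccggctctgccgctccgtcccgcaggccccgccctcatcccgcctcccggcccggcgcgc
BNIP3, chr10:131981924-131982173, minus strand: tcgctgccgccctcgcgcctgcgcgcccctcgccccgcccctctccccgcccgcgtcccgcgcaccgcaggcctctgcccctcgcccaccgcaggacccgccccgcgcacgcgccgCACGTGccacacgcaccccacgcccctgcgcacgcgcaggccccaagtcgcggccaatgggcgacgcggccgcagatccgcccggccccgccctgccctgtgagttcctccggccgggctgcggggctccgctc

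GABARAPL1, the member that rose most, has TGACGTCA from position -30, a sequence found in 1.65% of 35116 promoters. MAP1LC3B has TGACNNNGC from position -46 (10.9% of promoters), BNIP3 has CACGTG from position -134 (6.34%), and GABARAPL2 and ATG4A have ACGTG from -105 and -213 (18.5%). GTAAACA and AGATAA, held by 2.98% and 9.17% of promoters, were not in these windows of the 9 members. The ULK1 window held none of the 6 motifs. Nor did the windows of FUNDC1, of SQSTM1 and of ATG7, which fell more than BNIP3 from D8 to D12. These matches are descriptions of the letters in the window. GC content was 51.6% in GABARAPL1, 74.8% in MAP1LC3B, 78% in ULK1 and 81.6% in BNIP3, against a median of 58% over all promoters in the table.

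GABARAPL1 was, with ULK1, the least abundant member on D0 and by mean TPM the fourth on D12. GABARAPL1 (gene 23710, chr12:10212877-10223128) was at 4.39, 7.69, 6.94, 5.88, 5.68, 6.14, 8.07, 22.7 and 35.7 TPM on D0 to D8 and 204 TPM on D12 in set A. In set B it was at 4.89, 6.57, 7.02, 5.70, 4.84, 4.59, 5.68, 12.01 and 14.5 TPM, then 174 TPM on D12. D0 to D6 stayed between 4.39 and 8.07 TPM, D7 and D8 stood above them and D12 above all. The D8 level was 8.43-fold over D0 (log2 3.08 ± 0.45 SE, adjusted p = 0.000196), and the D12 level 19.7-fold over D8 (log2 4.30 ± 0.47 SE, adjusted p = 3.38e-06). Without the D8 library of set A these log2 values were 2.07 and 5.29, and without that of set B 3.68 and 3.70, all called. On log2(TPM + 0.1) the D12 change was 3.04 (adjusted p = 5.57e-06), still the largest increase among the members.

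MAP1LC3B, which encodes the LC3B protein used to mark autophagosomes, stayed within a narrow range of TPM until D8. MAP1LC3B (gene 81631, chr16:87392336-87404774) was at 67.9, 78.7, 71.6, 71.4, 71.3, 71.3, 65.4, 73.2 and 87.0 TPM on D0 to D8 and 318 TPM on D12 in set A. In set B it was at 77.8, 72.8, 73.7, 72.4, 67.1, 70.7, 70.03, 64.0 and 68.2 TPM, then 284 TPM on D12. The D12 libraries stood apart from 18 others that lay between 64.0 and 87.0 TPM. The D12 increase was 10.4-fold over D8 after TMM (log2 3.38 ± 0.19 SE, adjusted p = 8.63e-09) and 1.96 on log2(TPM + 0.1) (adjusted p = 2.23e-08). The D8 increase over D0 was 1.64-fold after TMM (adjusted p = 0.00708) but 0.084 on the TPM scale (adjusted p = 0.638). Reads of MAP1LC3B2, a near-identical copy that held a mean of 10.1 TPM on D12, may be divided with it. BNIP3 and GABARAPL1 also have near-identical pseudogene copies, so their values are uncertain in the same way.

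GABARAPL2 (gene 11345, chr16:75566379-75577881), also known as GATE-16, was at 72.7 to 92.6 TPM in the 18 libraries of D0 to D8 and at 152 and 135 TPM on D12. It was 4.32-fold higher on D12 than on D8 (log2 2.11 ± 0.15 SE, adjusted p = 4.62e-08) and 1.75-fold higher on D8 than on D0 (log2 0.81 ± 0.14 SE, adjusted p = 0.000707). The latter call was lost on log2(TPM + 0.1), at 0.20 (adjusted p = 0.164).

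The makeup of the ATG8 family by day is described without a test. Shares of the summed TPM of its genes, which do not depend on the scaling between libraries, gave GABARAPL1 1.44% and 1.50% on D0, 7.32% and 3.70% on D8 and 16.3% and 14.3% on D12. GABARAPL2 went from 23.9% and 26.1% on D0 to 12.2% and 11.1% on D12, and MAP1LC3B was at 22.3% and 23.9% on D0, 17.8% and 17.4% on D8 and 25.5% and 23.4% on D12. GABARAP, which is no member, held 42.98% to 56.1% in all libraries. The summed level of the family was 305 and 325 TPM on D0, 488 and 393 TPM on D8 and 1248 and 1214 TPM on D12. GABARAPL1 overtook GABARAPL2 between D8 and D12: it stood at 0.39 and 0.17 of its TPM on D8 and at 1.34 and 1.29 times it on D12.

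**Figure D4:**
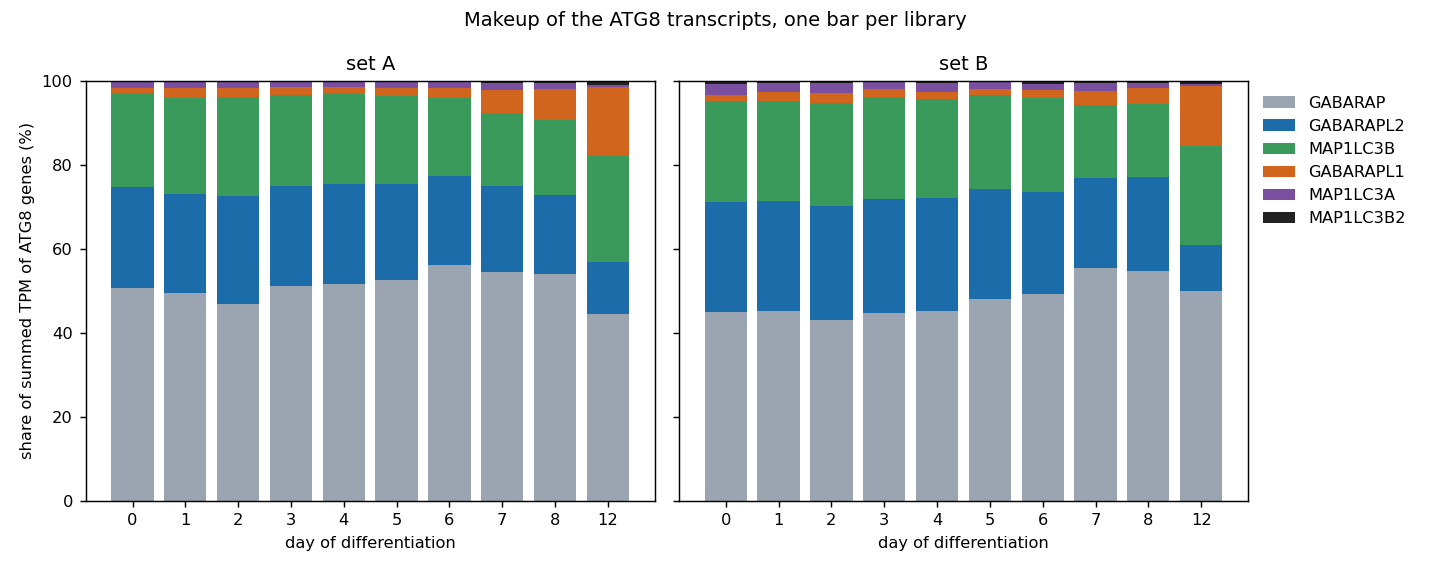
Share of the summed TPM of the ATG8 genes held by each gene (%), by day of differentiation, 1 bar per library in sets A (left) and B (right). GABARAPL1 (orange) grows from 1.44% and 1.50% on D0 to 16.3% and 14.3% on D12, and GABARAPL2 (blue) shrinks from 23.9% and 26.1% to 12.2% and 11.1%.

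SQSTM1 showed 2 high points, on D1 and on D12. SQSTM1 (gene 8878, chr5:179806393-179838078) was at 131, 290, 161, 157, 149, 149, 146, 187 and 210 TPM on D0 to D8 and at 489 TPM on D12 in set A. In set B it was at 138, 210, 177, 159, 142, 138, 133, 139 and 129 TPM, then 426 TPM on D12. Either D1 library lay above those of D0 and of D2 to D6. The D1 difference from D0 was 0.99 ± 0.28 SE on the log2 scale and was not called (adjusted p = 0.184), although it was with DESeq2 (adjusted p = 0.0236) and with a term for the table set (adjusted p = 0.0405). The D8 increase over D0, 1.96-fold (log2 0.97 ± 0.28 SE, adjusted p = 0.0143), was in TPM an increase in set A and a decrease in set B. D12 was 7.16-fold over D8 (log2 2.84 ± 0.29 SE, adjusted p = 2.01e-06). Without the D8 library of set A the D12 value was 3.40 and the D8 value 0.40 (adjusted p = 0.285), and without that of set B they were 2.41 and 1.40, both called. Transcript NM_003900, which starts at 179820905, carried 93.6% to 98.6% of SQSTM1 TPM over the libraries. SQSTM1 passed BNIP3L in TPM on D12, at 1.15 and 1.84 times its level against 0.76 and 0.56 on D8, though the ranges of the 2 genes overlapped on D12.

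Of the 6 calls on D8 against D0, 3 were lost without the set A library that held 17.5% ribosomal RNA counts. ULK1, GABARAPL1 and GABARAPL2 were still called against D0, and ATG4A (log2 1.03, adjusted p = 0.201), MAP1LC3B (0.37, adjusted p = 0.133) and SQSTM1 (0.40, adjusted p = 0.285) were not. Against D4-6, the lowest log2 values with 1 library left out were 0.65 for ATG4A, 0.28 for MAP1LC3B, 0.48 for GABARAPL2 and 0.15 for SQSTM1. With all libraries they were 1.23, 0.63, 0.66 and 0.73. ULK1 and GABARAPL1 stood at 1.12 and 1.60 at lowest, against 1.86 and 2.60. The fit without the D8 library of set A leaves a lone D8 library. Calls over all genes fell in it as well, most of all against D4-6, so the loss was not particular to the members. With all libraries, library totals in place of TMM gave 3 members higher on D8 against D0 (9.16% of all genes) and 0 lower (27.9%), and log2(TPM + 0.1) gave 2 higher, ULK1 and GABARAPL1 (7.40%). Leaving out both set A libraries of D7 and D8, an alternative chosen after seeing the data, also leaves a lone D8 library. There too, calls on D8 fell over all genes as well as over the members. With the set A library of D0 left out, ATG4A, MAP1LC3B and SQSTM1 were lost too, which left 3. On D12, 7 members were higher and at least 2 lower whichever D8 or D12 library was left out. With the ribosomal RNA genes left out of the counts and all libraries kept, the 6 members were called on D8 against D0 and against D4-6, for example ATG4A at 1.61 against D0 (adjusted p = 0.0198).

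The scaling of D12 moved the values of all members in one direction. TMM factors were 0.805 and 0.994 on D8 and 0.544 and 0.464 on D12. With library totals alone, values of D12 against D8 shifted by a median of -0.82 over all genes, and the median gene stood at -1.02. Of all calls in that comparison, 41.6% were increases after TMM, 19.6% with library totals and 12.3% on log2(TPM + 0.1), for D8 against D0 47.7%, 24.7% and 15.9%, and for D8 against D4-6 52.4%, 21.0% and 10.9%. Relative to the median gene, the 7 increases stood between 1.97 (BNIP3L) and 4.51 (GABARAPL1) after TMM, between 2.00 and 4.56 with library totals and between 1.52 and 4.24 on log2(TPM + 0.1). ATG7 stood at -1.51, -1.53 and -1.81 relative to it and BNIP3 at -0.70, -0.72 and -1.14. FUNDC1 stood at -0.42, -0.40 and -0.86. TMM and library totals differ only by a factor per library, so subtracting the median makes their values nearly equal by construction. On the unadjusted TPM scale, 5 members were higher on D12 (8.11% of all genes) and 3 lower (58.0%), with BNIP3L and ATG4A not called and FUNDC1 added to those lower.

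By level within a day, the order of the members on D0 in TPM was BNIP3L, SQSTM1, GABARAPL2, MAP1LC3B, BNIP3, ATG4A, ATG7, FUNDC1, ULK1 and GABARAPL1. The libraries of GABARAPL2 and MAP1LC3B, of ATG7 and FUNDC1, and of ULK1 and GABARAPL1 overlapped, and the other neighbours did not. On D12 the order was SQSTM1, BNIP3L, MAP1LC3B, GABARAPL1, GABARAPL2, ATG4A, ULK1, BNIP3, FUNDC1 and ATG7, where overlap was seen between SQSTM1 and BNIP3L and between BNIP3L and MAP1LC3B only. The lowest and highest mean levels were 4.64 and 396 TPM on D0 and 0.919 and 458 TPM on D12.

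Across the 20 libraries, the pattern of log2 CPM fell into opposed sides, which is a description, since the libraries share the days and the D12 libraries stand apart. GABARAPL2 and MAP1LC3B ran closest together (Pearson r = 0.99), then GABARAPL1 with GABARAPL2 (0.98), MAP1LC3B with SQSTM1 (0.97) and GABARAPL1 with ULK1 (0.97). ATG7 was opposed to MAP1LC3B and to BNIP3L (r = -0.96 each). Among 8539 other genes with a mean of at least 10 CPM, the 3 most like MAP1LC3B were OAZ1, UBAP1 and PIP4K2A (r = 0.997, 0.997 and 0.996), and those most like GABARAPL2 were SIAH2, MKRN1 and PPM1A (0.996, 0.996 and 0.995). GABARAPL1 was most like LRRC8A, BCL2L1 and TCP11L2 (each 0.993), and ULK1 like BSDC1, CCS and TCEANC (0.994, 0.992 and 0.992). SQSTM1 ran with CTSB (0.995), FTL (0.985) and CYBC1 (0.983), ATG4A with YPEL3 and STAM (0.992 each), and BNIP3L with GOLGA7, TOPORS and N4BP2L2 (0.974, 0.971 and 0.970). ATG7 was most like DPY19L4, CCND2 and NUP93 (0.990, 0.988 and 0.984), BNIP3 like HROB, ICMT and TOP3A (0.943, 0.934 and 0.933), and FUNDC1 like CAPN2, TFG and ZNF197 (0.920, 0.892 and 0.892).

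Around the members, the rest of the pathway was read from lists of genes. Values given below with an SE are log2 fold changes after TMM of genes that passed the test. Of 105 other genes of autophagy, lysosomes and mitochondria tested, 56 were higher on D12 than on D8 (53.3%) and 24 lower (22.9%). On D8, 36 were higher than on D0 (34.3%) and 20 lower (19.0%). Of all genes tested, 23.8% were higher and 33.4% lower on D12, and 17.7% and 19.4% on D8. With library totals 32 were higher and 44 lower on D12, where 11.8% of all genes were higher and 48.4% lower. On D8 it was 21 and 36, against 9.16% and 27.9% of all genes. On log2(TPM + 0.1), called the TPM scale below, 23 were higher and 57 lower on D12, where 8.11% of all genes were higher and 58.0% lower. On D8 it was 13 and 43, against 7.40% and 39.1% of all genes. The counts of single lists below are to be read against these shares of all genes. In the initiation list (ULK kinase complex and the lipid kinase complex it activates), 10 of 13 were higher on D12 and 2 lower, led by ATG14 (log2 3.36 ± 0.23 SE), which directs the lipid kinase to autophagy, and ULK1. Its catalytic subunit PIK3C3 was lower (-0.70 ± 0.20 SE), as was the kinase ULK2, with 211 and 275 counts on D8 and 0 and 3 on D12. With library totals 7 were higher and 4 lower, and on the TPM scale 6 and 4. Of 10 genes that supply membrane, 7 were higher and 2 lower, led by the lipid scramblase ATG9A (2.61 ± 0.21 SE) and WDR45 (2.60 ± 0.50 SE), while the paralog ATG9B was lower (-2.55 ± 0.30 SE). With library totals 5 were higher and 3 lower, and on the TPM scale 4 and 4.

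The conjugation list holds ATG7. Of its 7 genes, 2 were higher on D12 after TMM, ATG16L1 (0.84 ± 0.21 SE) and ATG12 (0.74 ± 0.17 SE), and 3 lower, among them ATG10 (-2.86 ± 0.42 SE), the E2-like enzyme for ATG12. The 2 increases changed sign with library totals (-0.015 and -0.085, not called) and on log2(TPM + 0.1) (-0.61 and -0.71, called), where all 7 genes of the list were lower. All 6 ATG8 genes tested were higher on D12 after TMM; with library totals and on TPM it was 5, without MAP1LC3A, which stood at -0.040 on TPM. Of the 4 ATG4 proteases, ATG4A, ATG4D (1.79 ± 0.19 SE) and ATG4B (1.04 ± 0.20 SE) were higher and ATG4C lower (-3.96 ± 0.21 SE), with library totals 2 were higher and 1 lower, and on TPM 0 and 1.

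Among 6 outer membrane receptors, 4 were higher and 1 lower on D12, led by FKBP8 (2.79 ± 0.23 SE, 635 TPM on D8 and 1614 TPM on D12), which stood above BNIP3L in TPM on either day, and BCL2L13 (2.05 ± 0.14 SE). With library totals 3 were higher and 2 lower, and on TPM 2 and 3. Of 7 soluble cargo receptors, 6 were higher and 0 lower on D12 and on D8 against D0, with OPTN at 2.57 ± 0.34 SE on D8. On TPM the D12 counts were 1 higher (SQSTM1) and 2 lower. In the PINK1-Parkin list 4 of 10 were higher and 3 lower on D12. The kinase PINK1 rose by 3.83 ± 0.29 SE, from 27.3 to 143 TPM, and the mitofusin MFN1 was lower (-1.58 ± 0.18 SE). On TPM PINK1 was the only one of that list called higher (2.40), with 7 lower.

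Of 7 MiT-TFE and FOXO regulators, which switch on lysosome and autophagy genes, 4 were higher and 1 lower on D12. TFE3 (3.37 ± 0.32 SE) and FOXO1 (3.53 ± 0.75 SE) led and MITF was lower (-2.83 ± 0.25 SE), and on D8 FOXO3 was 2.52 ± 0.30 SE above D0. Of 19 lysosome genes, 12 were higher and 3 lower on D12, with the calcium channel MCOLN1 at 3.30 ± 0.22 SE and the sialidase NEU1 at 2.89 ± 0.35 SE, and on TPM it was 4 higher and 9 lower. Of 14 genes of autophagosome-lysosome fusion, 5 were higher and 3 lower after TMM but 1 higher, PLEKHM1 (2.28 ± 0.13 SE after TMM), and 9 lower on TPM. Of 12 genes of mitochondria, the cargo, 0 were higher and 7 lower on D12, among them TFAM (-2.05 ± 0.26 SE), which packs mitochondrial DNA, and the channel VDAC1 (-1.66 ± 0.15 SE), and on TPM all 12 were lower.

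Known target genes of HIF-1 and NRF2 gave these counts. No list of target genes was made for the other motifs searched, and BNIP3 was not in the HIF-1 list. Of 8 HIF-1 target genes tested, 5 were higher and 1 lower on D12 (1 and 3 on TPM), with SLC2A1 at 2.41 ± 0.30 SE. Of 8 NRF2 target genes, 7 were higher and 0 lower on D12 (3 and 2 on TPM), with HMOX1 at 4.28 ± 0.77 SE, and 7 were higher and 1 lower on D8 against D0, where their median log2 fold change was 2.17. At D1, 0 of these 8 were called and their median was 0.80, against 0.00 over all genes. A link between these genes and the level of SQSTM1 was not tested.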

How the data were processed

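RNA-seq libraries (TruSeq Stranded mRNA) of 20 HUDEP-2 samples were analysed from the processed tables. Per the submitters' processing notes, the authors used Trimmomatic 0.38, HISAT2 2.1.0 and StringTie 2.1.3b with hg38. The deposited tables give whole-number read counts per RefSeq transcript without normalization, and TPM, which the authors scaled for length and to a fixed total in each library. How reads shared by transcripts were divided is not given in the sources used here. Of the columns with values, 40 were used and 23 were not (FPKM and a further set of D0 columns).

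Columns were grouped by day from their names. Counts and TPM were summed by gene symbol. Counts were filtered with filterByExpr, scaled with TMM and tested with edgeR 4.0.16 (glmQLFit, glmQLFTest; R 4.3.3), with a coefficient for each day in 1 fit of all 20 libraries. Adjustment was after Benjamini and Hochberg over 16784 genes, at a threshold of 0.05. The study names the exact test of edgeR, which was run as an alternative on the 4 libraries of D0 and D8. D4-6 is the mean of the D4, D5 and D6 coefficients. Standard errors were taken as the size of the log2 fold change divided by the root of its F statistic. Comparisons on log2(TPM + 0.1) used limma 3.58.1 on the same genes.

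The members and lists were chosen with earlier results of these data known. All members were named in each comparison. From the lists, at most the 2 largest called increases and the 2 largest called decreases with a mean of at least 10 counts were named, and for each member the 3 genes with the highest r were named, except for ATG4A, for which 1 of them is not reported here. MAP1LC3A, ATG4B, and GABARAP on D12, fall outside this rule and were named after their values were seen.

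On simulated counts with 200 changed genes, the test recovered 100% of 4-fold changes in each of the 5 comparisons. For D12 against D8, with 15926 genes, it recovered 45% of 2-fold changes, with 3.97% of calls false. Every simulated gene was given the same dispersion, 0.04, and the changes had random signs. The simulation thus held neither genes of wider spread nor the shift in library makeup of D12, and its rates may not hold there. The reads have no molecular identifiers, so they are not independent molecules. Alternatives were library totals, upper-quartile scaling, TMM without globin genes, leaving out ribosomal RNA genes, other filters on low counts, a term for the table set, DESeq2 1.42.0, limma on TPM with pseudocounts of 1 and 0.1, fits of only the days compared, each library left out in turn, and, chosen after seeing the data, a fit without the D7 and D8 libraries of set A.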

Additional observations from a re-analysis of the deposited data

How the results depend on the processing

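Of 890 values of single members under an alternative, 770 kept their direction and their side of the threshold, 57 lost the call, 17 gained one and 46 changed sign (2 of these were called, BNIP3 on D8 against D0 with limma, and none under the settings of the report). The counts on D12 against D8 stayed within 1.5 times of 7 higher and 2 lower. Members called higher on D8 against D0 numbered 3 with library totals, 2 with limma on log2(TPM + 1) or log2(TPM + 0.1), 3 without the D7 and D8 libraries of set A, and 3 to 6 with 1 library left out. Against D4-6 they numbered 3, 2, 2 and 2 to 6 in the same order. With limma 1 member was lower against D0 and 2 against D4-6. Of 16784 genes, library totals called 1538 higher on D8 against D0 and 900 against D4-6. Limma called 1223 and 695 higher with a pseudocount of 1, and 1242 and 642 with 0.1. It called 6660 and 5213 lower with a pseudocount of 1, and 6555 and 5230 with 0.1. Calls on D8 fell over all genes as well without the D8 library of set A, alone or with that of D7. For D4-6 against D0, 2 were higher (ULK1 and FUNDC1) with at least 10 counts in every library, with the table set as a term, with DESeq2 and with only the days compared, 1 was lower (BNIP3L) with the table set, and 0 to 1 were higher with 1 library left out. On D1, 1 was higher (SQSTM1) with the table set, DESeq2 or without the D7 and D8 libraries of set A. Over all 16784 genes, D4-6 against D0 gave 2108 higher and 2701 lower with the table set, and 1713 and 1974 with DESeq2. With at least 10 counts in every library it gave 1107 and 1200 of 11081 genes. With only the days compared it gave 1195 and 1630 of 15386. On D1, 268 of 16784 genes were higher with the table set and 262 with DESeq2. The member counts are to be read against these. The cause of the changed calls was not tested.

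The sign changes on the log2 scale were these. With library totals BNIP3 was -0.046 on D4-6 against D0 and BNIP3, FUNDC1 and ATG7 were -0.37, -0.032 and -0.27 on D8 against D0, and BNIP3L was -0.090 against D4-6. Limma with pseudocounts of 1 and 0.1 gave, on D4-6 against D0, -0.14 and -0.14 for BNIP3, -0.068 and -0.069 for MAP1LC3B and -0.011 and -0.011 for GABARAPL2; on D8 against D0, -0.57 and -0.58 for BNIP3, -0.23 and -0.25 for FUNDC1 and -0.53 and -0.58 for ATG7; and -0.19 and -0.19 for BNIP3L against D4-6. Upper-quartile scaling gave 0.028 for BNIP3L on D8 against D0 and 0.022 for BNIP3 against D4-6, where only the days compared gave 0.0012. BNIP3 on D8 against D0 was -0.014 without a filter, -0.011 with at least 10 counts in every library and -0.013 with DESeq2, and the strict filter gave -0.0094 on D4-6. Without the D7 and D8 libraries of set A, BNIP3L was -0.044 and ATG7 0.086 on D8 against D4-6. With 1 library left out, the values ran from -0.45 to 0.11 for ATG4A on D1, from -0.055 to 0.087 for BNIP3 and -0.016 to 0.33 for ATG7 on D4-6, from -0.32 to 0.24 for BNIP3L, -0.041 to 0.064 for BNIP3 and -0.072 to 0.27 for ATG7 on D8 against D0, and from -0.077 to 0.065 for BNIP3, -0.21 to 0.081 for ATG7 and -0.051 to 0.49 for BNIP3L against D4-6.

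No paired analysis was possible because the columns of the deposited tables carry a day but no replicate number. A term for the table set, A or B, each of which holds 1 library of each day, was fitted instead, with its effect given above. It does not separate the tables joined in set A. With 2 libraries a day and a self-test recovery of 37% of 2-fold changes for D8 against D0, small changes can be missed. Where 1 library was left out, the lone library of that day was assumed to vary like the others.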
